A study of Danio rerio with 72 samples.

Results

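The glycolysis, glycogen and creatine kinase genes described here are 37 named genes out of the 25067 in each expression table: 2 glucose transporters, 30 genes of the glycolytic steps including lactate dehydrogenase, 3 glycogen genes and 2 muscle creatine kinases. They were picked by gene name from these enzyme families, by a rule that uses no expression value. Earlier results of these data were known when they were chosen, so the choice was not blind to them. All 37 symbols were found in both tables. Of these, 36 passed the filter on low values in series M (slc2a1a did not) and 35 in series Z (slc2a1a and aldoca did not), and these were tested.

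The data are polyA RNA libraries from pieces cut by laser out of frozen tail cross-sections stained with cresyl violet, from 52 hpf (hours after fertilization) zebrafish embryos. Each section gave 6 captures: muscle on the left (L) and on the right (R), neural tissue (N), and 3 vessels, CA (caudal artery), CV (caudal vein) and CVP. CVP is the caudal vein plexus, a venous network in which embryonic blood progenitors settle. There are 2 series, M with sections at layers 2, 6, 8, 12, 15 and 17 and Z with sections at layers 1, 6, 10, 19, 22 and 25, and the labels name no genotype, strain or treatment for either. L and R are called muscle below, and CA, CV and CVP the vascular captures. This gives 12 muscle, 6 N and 18 vascular libraries of series M, and 11, 6 and 18 of series Z, where 1 left muscle library was left out. The labels do not say which embryo a section came from, so sections serve as replicates. The p-values of tissue comparisons of single genes measure the spread between libraries that is left after region and section are fitted. Those of gene pairs measure the spread of the tissue difference between sections. If several sections came from 1 embryo, these p-values are too small.

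Glycolysis breaks glucose down to pyruvate in the cytosol and yields ATP without oxygen, and lactate dehydrogenase turns pyruvate and lactate into each other. Glycogen phosphorylase frees glucose units from stored glycogen, glycogen synthase lays them down, and creatine kinase moves phosphate between ATP and creatine, which buffers ATP in contracting muscle. Most of these steps are carried out by several isozymes from separate genes, and in mammals some are typical of skeletal muscle and others of brain. Zebrafish often keep an extra a or b copy of such genes from the genome duplication of bony fishes.

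In both series neural genes separated N from the other captures, and sarcomere genes separated muscle from N. In series M the sarcomere sum overlapped between muscle and vascular captures. The endothelial sum of series M overlapped between N and vascular captures and was near 0 in the lowest vascular library. The summed FPKM (fragments per kilobase of gene, scaled to the library total) of 20 sarcomere genes was 122083 to 301109 in muscle, 119 to 3520.4 in N and 649 to 167460.0 in the vascular captures of series M. In series Z it was 71344 to 278580.0 in muscle, 305 to 4028 in N and 26.5 to 68873 in the vascular captures. The sum of 12 neural genes was 3933 to 5074 in N and 3.46 to 253 in the vascular captures of series M, and that of 9 endothelial genes was 9.68 to 39.9 in N and 2.24 to 1639 in the vascular captures. One library stood apart: the CA capture of layer 8 in series M lay closer to the muscle mean than to its own region, with sarcomere genes at 167460.0, more than in any other vascular library. Another 6 vascular libraries lay closest to another vascular region, which makes 4 libraries of series M closest to a region other than their own. Where the highest vascular value of series M moves by over 1.5 times without these 4, the range without them stands beside it. Over the genes of the tables, libraries held 75007 to 4009980 reads, as recovered from the FPKM values. In muscle of series M 5449 to 9372 genes were detected, against 15754 to 18081 in N. In series Z the detected genes numbered 3463 to 10837 in muscle and 11983 to 18304 in N. Muscle captures also held epidermal genes, whose sum over 5 genes was 25.1 to 9534 in muscle and 3.72 to 22.7 in N of series M. In series Z that sum was 66.4 to 19241 in muscle and 0 to 5.47 in N. The part of epidermal RNA in the muscle values was not tested. In captures of mixed tissue, fewer cells of a type and less RNA per cell cannot be told apart.

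These genes took a larger part of the reads in muscle than in N, without overlap. The 37 genes took 2.07% to 3.97% (median 3.33%) of all reads recovered from the FPKM values in muscle of series M, 0.275% to 0.584% (median 0.379%) in N and 0.171% to 2.87% (median 0.290%) in the vascular captures. In series Z they took 1.69% to 3.90% (median 2.90%) in muscle, 0.225% to 0.634% (median 0.465%) in N and 0.167% to 0.819% (median 0.253%) in the vascular captures. The highest vascular value of series M came from the CA capture of layer 8, and without the 4 libraries closest to another region the share was 0.171% to 0.736% (median 0.311%). The creatine kinases ckma and ckmb alone made up 0.891% to 2.65% (median 1.99%) of the reads of muscle in series M and 0.704% to 2.26% (median 1.55%) in series Z.

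**Figure D1:**
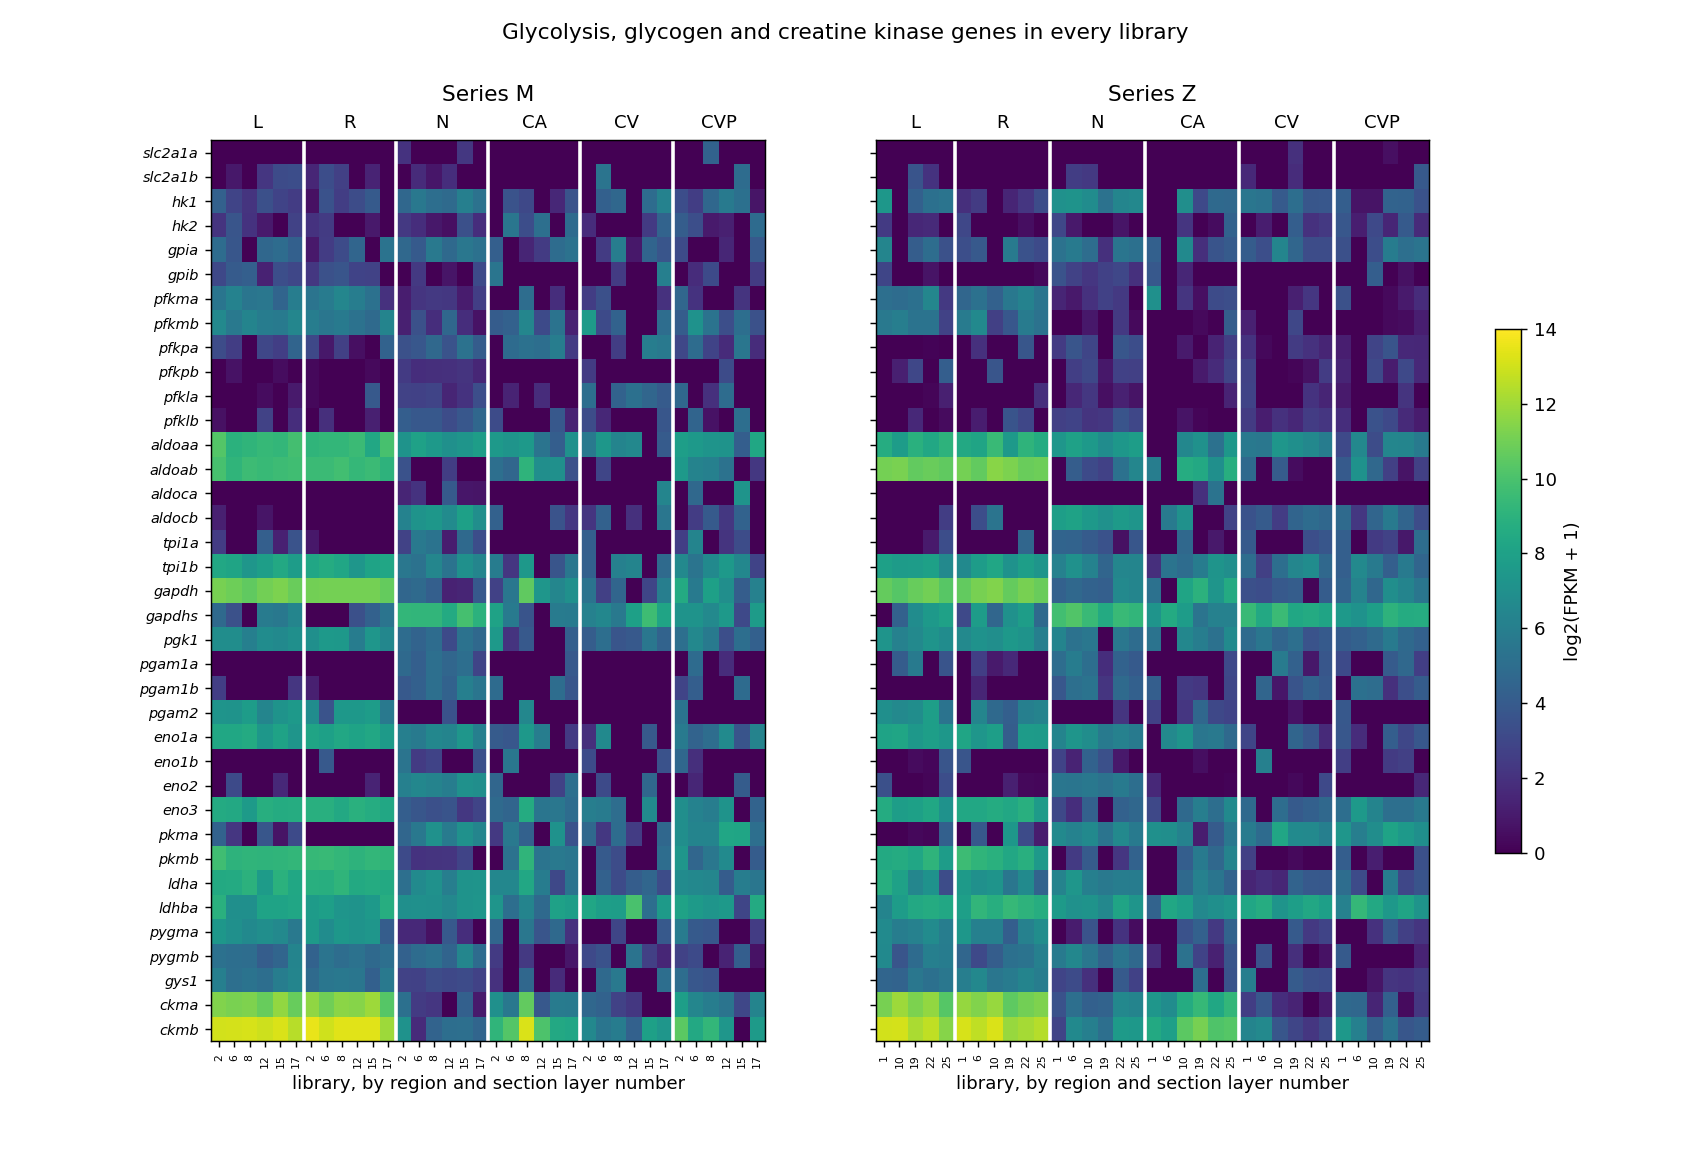
Level of each of the 37 genes as log2(FPKM + 1) (colour) in each of the 71 libraries used, by region (L and R, then N, then CA, CV and CVP) and section layer number, with series M left and series Z right. The creatine kinases ckma and ckmb are brightest in L and R, while aldocb, gapdhs, eno2 and pkma are brighter in N than in L and R.

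Between muscle and N the family split into genes that were higher and genes that were lower in muscle. By limma on log2(FPKM + 1) with Benjamini-Hochberg adjustment over all genes (threshold 0.05), 15 of the 36 members tested in series M were higher in muscle, against 3.27% of all 18263 genes tested, and 12 were lower, against 49.1%. In series Z 13 of 35 were higher, against 3.49% of 16547 genes, and 11 were lower, against 41.8%. In both series 12 members were higher (ckma, ckmb, aldoab, gapdh, pkmb, pgam2, eno3, pygma, pfkma, pfkmb, gys1 and pgk1) and 9 were lower (aldocb, eno2, gapdhs, pkma, pgam1a, pgam1b, hk1, tpi1a and pfklb). The share of members called lower was below that of all genes. The whole table leaned towards N: the median difference over all genes was -1.63 in series M and -1.32 in series Z, against 0.81 and -0.01 over the members. Quantile scaling brought the median of all genes to 0.11 and 0.04. Under it all 12 higher genes were still called in both series, and of the 9 lower genes 5 were (aldocb, eno2, gapdhs, pgam1b and pkma). When a covariate for how many genes a library detected was added, which moves with the tissue, 8 of the 12 higher genes and none of the 9 lower ones were called in both series. The loss ran through the whole table: with it 1.52% (series M) and 6.56% (series Z) of all genes were lower in muscle. Of all genes, 0.876% (series M) and 2.96% (series Z) were higher with the covariate. For the lower genes, tissue and number of detected genes cannot be told apart. By limma-voom on reads recovered from the FPKM steps, all 12 and all 9 were called in both series. The lean towards N stayed under limma-voom: 55.2% (series M) and 40.8% (series Z) of all genes were lower in muscle. Higher in muscle were 4.05% and 3.8%, and the median differences over all genes were -2.13 and -1.78.

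**Figure D2:**
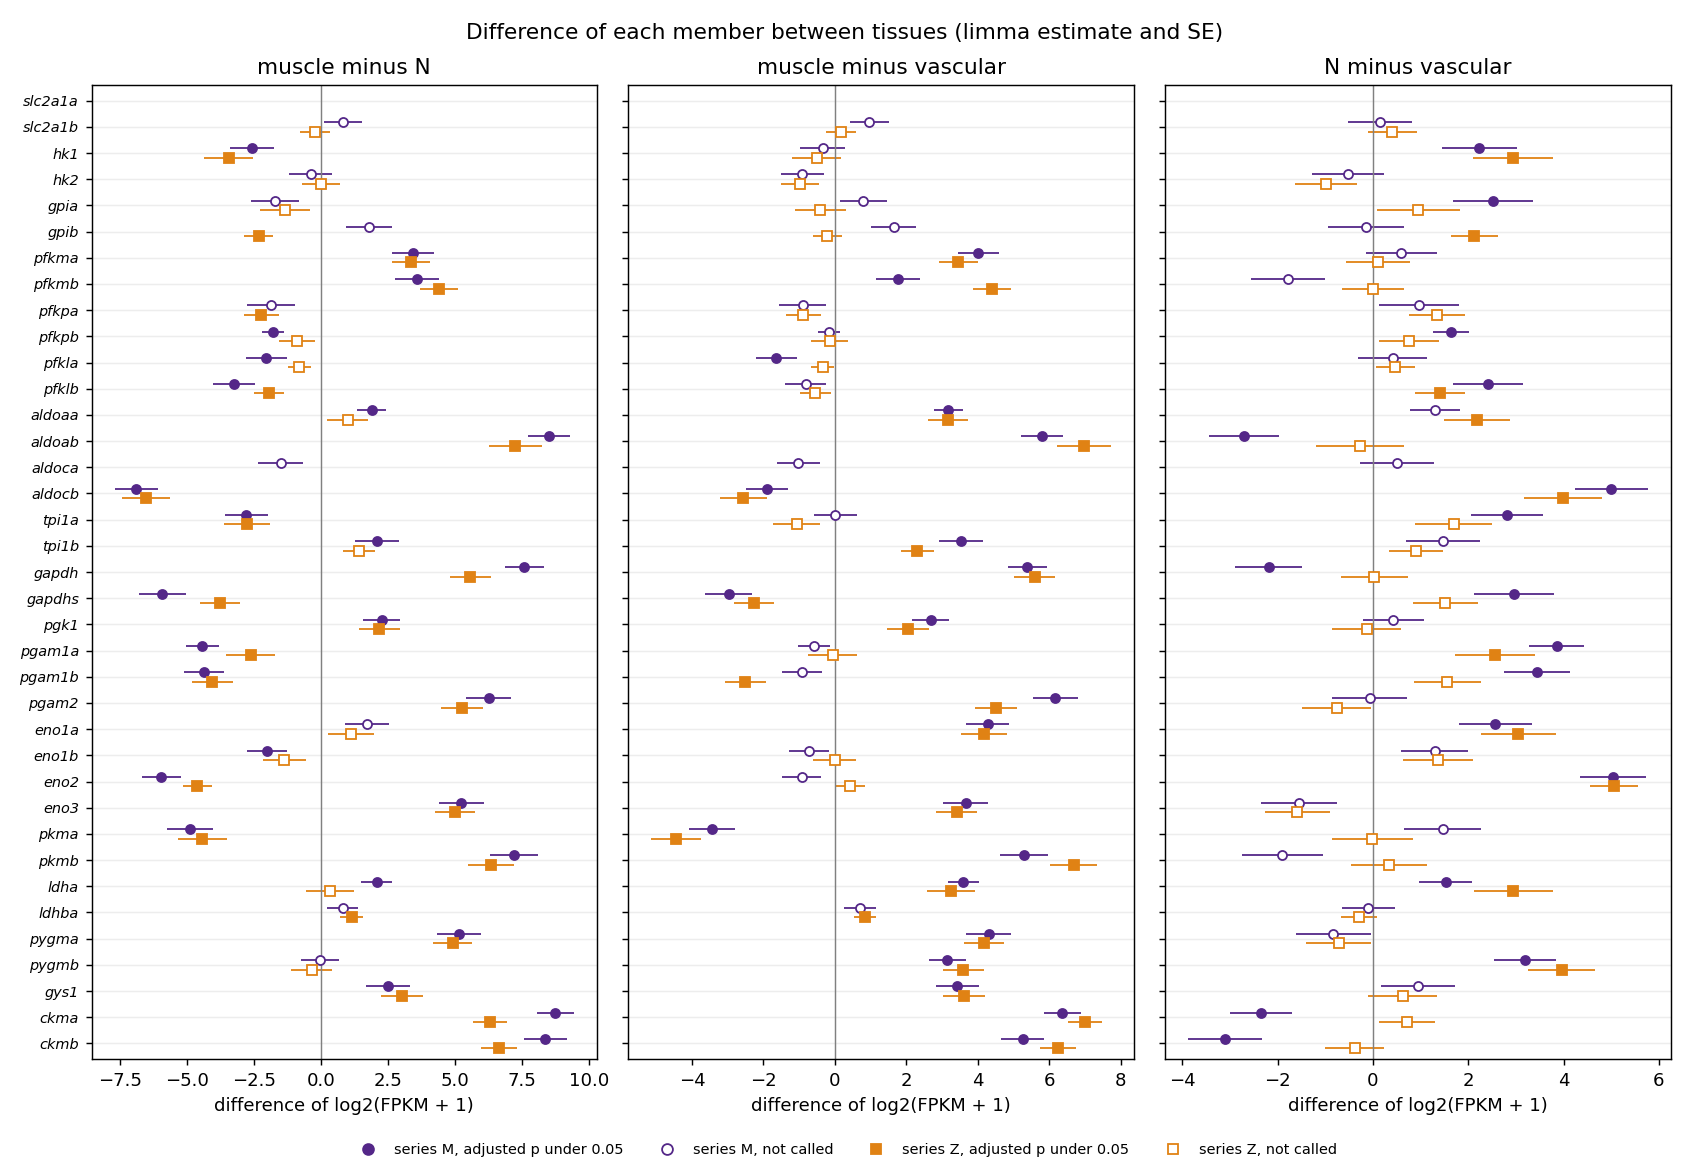
Difference of log2(FPKM + 1) of each gene (x axis) for muscle minus N, muscle minus vascular and N minus vascular, with its standard error, in series M (circles) and series Z (squares); filled symbols have an adjusted p under 0.05. In the left panel ckma, ckmb, aldoab, gapdh and pkmb lie far to the right in both series and aldocb, eno2, gapdhs and pkma far to the left, and slc2a1a has no symbol because it was not tested.

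The creatine kinases had the highest median levels of all members in muscle. ckmb codes for a cytosolic muscle creatine kinase. In series M, ckmb was at 3904 to 12088 FPKM in muscle (median 9045), 2.33 to 139 in N (median 27.8) and 0 to 9594 in the vascular captures (median 280.0; 0 to 1406 and median 205 without the 4 libraries). Series Z had ckmb at 2839 to 9489 FPKM in muscle (median 6394), 6.29 to 201 in N (median 82.9) and 3.66 to 2256 in the vascular captures (median 73.4). The ranges of muscle and N did not overlap in either series, and ckmb was higher in muscle than in N by 8.36 ± 0.82 (series M, adjusted p = 1.59e-10) and 6.61 ± 0.67 (series Z, adjusted p = 5.49e-10). Differences are on the log2(FPKM + 1) scale, each with its standard error. Against the vascular captures it was higher in muscle by 5.26 ± 0.61 (series M, adjusted p = 2.51e-08) and 6.24 ± 0.51 (series Z, adjusted p = 1.57e-11). Its highest vascular value came from the CA capture of layer 8 in series M. ckma, the second copy, followed the same order of tissues. In series M, ckma was at 1253 to 3885 FPKM in muscle (median 2553), 0 to 35.4 in N (median 3.97) and 0 to 1605 in the vascular captures (median 44.2; 0 to 231 and median 22.2 without the 4 libraries). Series Z had ckma at 1266 to 4015 FPKM in muscle (median 2528), 10.6 to 93.3 in N (median 27.4) and 0 to 677 in the vascular captures (median 15.6). ckma was higher in muscle than in N by 8.73 ± 0.70 (series M, adjusted p = 1.21e-12) and 6.28 ± 0.63 (series Z, adjusted p = 4.98e-10). ckma also exceeded the vascular captures, by 6.37 ± 0.52 (series M, adjusted p = 1.56e-11) and 6.99 ± 0.48 (series Z, adjusted p = 2.76e-13). Per kilobase, ckma lay below ckmb in muscle: the mean difference ckma minus ckmb over 6 sections was -1.80 ± 0.22 (SD) in series M and -1.25 ± 0.22 in series Z. How the authors' counting treated reads shared by such close copies is not given in the sources used here, so levels of near-identical paralogs are uncertain.

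ckbb, a brain-type creatine kinase and not one of the 37 genes, ran the opposite way. Its copy ckba was not called between muscle and N in series Z. In series M, ckbb was at 0 in every library of muscle, at 361 to 913 (median 457) FPKM in N and at 0 to 32.7 (median 0) in the vascular captures. Series Z had ckbb at 0 to 16.2 FPKM in muscle (median 1.80), 509 to 881 in N (median 794) and 0 to 122 in the vascular captures (median 38.8). It differed between muscle and N by -8.93 ± 0.71 (series M, adjusted p = 1.08e-12) and -8.01 ± 0.80 (series Z, adjusted p = 4.76e-10). The pair difference ckma minus ckbb was 11.24 ± 0.45 in muscle and -6.41 ± 1.83 in N in series M (SD, n = 6 sections), and 9.49 ± 1.28 in muscle and -4.46 ± 1.28 in N in series Z. It was larger in muscle in 6 of 6 sections of each series (exact sign-flip permutation p = 0.03125, the smallest that 6 sections allow, and adjusted over 19 pairs p = 0.0457). Every muscle library lay above every N library in ckma and below it in ckbb, so this sign was fixed by the single-gene values. The pair test is not separate evidence here.

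Glucose entry and its first phosphorylation were low or unequal. slc2a1a and slc2a1b code for GLUT1-type glucose transporters. slc2a1a was at 0 in all muscle libraries of both series and above 0 in 2 N libraries of series M, 1 CVP library of each series and 1 CV library of series Z, the highest value being 20.04 FPKM. In series M, slc2a1b was at 0 to 8.93 FPKM in muscle (median 1.74), 0 to 2.51 in N (median 0.391) and 0 to 40.8 in the vascular captures (median 0). Series Z had slc2a1b at 0 to 11.7 FPKM in muscle (median 0), 0 to 4.86 in N (median 0) and 0 to 13.9 in the vascular captures (median 0). slc2a1b was not called between any tissues. hk1 and hk2 are hexokinases, which phosphorylate glucose on entry. In series M, hk1 was at 0 to 19.2 FPKM in muscle (median 6.24), 24.3 to 63.8 in N (median 35.0) and 0 to 73.3 in the vascular captures (median 9.96). Series Z had hk1 at 0 to 172 FPKM in muscle (median 4.5), 38.2 to 147 in N (median 101) and 0 to 122 in the vascular captures (median 16.0). hk1 was lower in muscle than in N, with a difference of -2.58 ± 0.83 (series M, adjusted p = 0.0105) and -3.45 ± 0.91 (series Z, adjusted p = 0.00248). In N it was higher than in the vascular captures by 2.23 ± 0.79 (series M, adjusted p = 0.0298) and 2.94 ± 0.84 (series Z, adjusted p = 0.00739). The ranges of muscle and N did not overlap in series M and did in series Z, and under quantile scaling the difference of series M was -1.07 with an adjusted p of 0.425. With the covariate for detected genes the hk1 differences of series M turned to 2.61 for muscle minus N (adjusted p = 0.628) and -2.38 for N minus vascular (adjusted p = 0.663). In series M, hk2 was at 0 to 11.7 FPKM in muscle (median 2.05), 0.474 to 9.73 in N (median 2.54) and 0 to 44.5 in the vascular captures (median 3.26). Series Z had hk2 at 0 to 6.82 FPKM in muscle (median 0), 0 to 6.93 in N (median 0.380) and 0 to 19.9 in the vascular captures (median 2.05). hk2 was low throughout and was not called in these comparisons.

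The next steps isomerize glucose 6-phosphate (gpia, gpib) and commit it to glycolysis (phosphofructokinase). In series M, gpia was at 0 to 39.2 FPKM in muscle (median 15.3), 14.9 to 49.3 in N (median 31.2) and 0 to 61.1 in the vascular captures (median 4.46). Series Z had gpia at 0 to 81.1 FPKM in muscle (median 10.5), 2.81 to 54.1 in N (median 35.9) and 0 to 101 in the vascular captures (median 13.5). gpia was higher in N than in the vascular captures in series M by 2.52 ± 0.83 (adjusted p = 0.021), and in series Z the difference was 0.95 ± 0.87 (adjusted p = 0.437). In series M, gpib was at 0 to 17.7 FPKM in muscle (median 7.03), 0 to 7.85 in N (median 0.371) and 0 to 65.4 in the vascular captures (median 0). Series Z had gpib at 0 to 6.53 FPKM in muscle (median 0), 2.83 to 10.8 in N (median 5.60) and 0 to 16.9 in the vascular captures (median 0). gpib was lower in muscle than in N in series Z, at -2.34 ± 0.54 (adjusted p = 0.000711), while series M gave 1.79 ± 0.85 (adjusted p = 0.0736), and the difference between the series itself did not pass (adjusted p = 0.199).

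Phosphofructokinase divided by type. pfkma and pfkmb, the muscle-type genes, were higher in muscle. In series M, pfkma was at 3.06 to 85.4 FPKM in muscle (median 44.5), 1.07 to 4.99 in N (median 3.58) and 0 to 31.7 in the vascular captures (median 0). Series Z had pfkma at 3.98 to 86.5 FPKM in muscle (median 34.6), 0 to 5.55 in N (median 2.39) and 0 to 129 in the vascular captures (median 0.754). pfkma was higher in muscle than in N by 3.42 ± 0.78 (series M, adjusted p = 0.000556) and 3.35 ± 0.72 (series Z, adjusted p = 0.00033). pfkma also exceeded the vascular captures, by 4.02 ± 0.58 (series M, adjusted p = 2.15e-06) and 3.45 ± 0.55 (series Z, adjusted p = 1.2e-05). In series M, pfkmb was at 27.8 to 93.6 FPKM in muscle (median 55.3), 0.589 to 24.5 in N (median 2.57) and 0 to 196 in the vascular captures (median 18). Series Z had pfkmb at 5.18 to 100.1 FPKM in muscle (median 39.2), 0 to 3.95 in N (median 0.152) and 0 to 16.6 in the vascular captures (median 0). pfkmb was higher in muscle than in N by 3.56 ± 0.83 (series M, adjusted p = 0.000634) and 4.39 ± 0.71 (series Z, adjusted p = 5.61e-06), with no overlap of libraries in either series. pfkmb also exceeded the vascular captures, by 1.78 ± 0.62 (series M, adjusted p = 0.0313) and 4.39 ± 0.54 (series Z, adjusted p = 1.01e-07). With a pseudocount of 0.1 the difference of pfkmb from the vascular captures was not called in both series. The liver-type pfklb was lower in muscle. In series M, pfklb was at 0 to 5.79 FPKM in muscle (median 0), 8.61 to 24.6 in N (median 13.5) and 0 to 32.8 in the vascular captures (median 0.307). Series Z had pfklb at 0 to 11.5 FPKM in muscle (median 0), 3.26 to 11.3 in N (median 5.67) and 0 to 10.5 in the vascular captures (median 1.57). Its muscle minus N difference was -3.24 ± 0.78 (series M, adjusted p = 0.000931) and -1.95 ± 0.56 (series Z, adjusted p = 0.00538), and under quantile scaling -1.31 in series M (adjusted p = 0.242) and -0.10 in series Z (adjusted p = 0.919). pfkla, pfkpa and pfkpb were each called lower in muscle than in N in 1 series: pfkla and pfkpb in series M (-2.05 ± 0.77 and -1.81 ± 0.41) and pfkpa in series Z (-2.23 ± 0.64), of which pfkla and pfkpb turned to 0.31 and 0.19 under quantile scaling, and pfkla and pfkpa to 0.14 and 0.76 with the covariate for detected genes. The medians of these 3 genes lay between 0 and 5.15 FPKM in muscle and between 1.08 and 14.4 in N. Within the family, pfkma and pfkmb had median shares of 38.5% and 49.5% of its summed FPKM in muscle of series M and 41.7% and 45.4% in muscle of series Z, against 7.12% and 4.48% in N of series M and 11.3% and 0.694% in N of series Z.

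Aldolase, which splits fructose 1,6-bisphosphate, was led by an A-type gene in muscle, while a C-type gene was higher in N. In mammals aldolase A is the muscle form and aldolase C the brain form. In series M, aldoab was at 522 to 954 FPKM in muscle (median 753), 0 to 10.5 in N (median 0) and 0 to 556 in the vascular captures (median 16.9; 0 to 188 and median 15.1 without the 4 libraries). Series Z had aldoab at 1539 to 2909 FPKM in muscle (median 1889.8), 0 to 85.4 in N (median 12.2) and 0 to 445 in the vascular captures (median 14.8). aldoab was higher in muscle than in N by 8.50 ± 0.78 (series M, adjusted p = 3.58e-11) and 7.24 ± 1.00 (series Z, adjusted p = 3.64e-07), with every muscle library above every N library. aldoab also exceeded the vascular captures, by 5.80 ± 0.58 (series M, adjusted p = 1.23e-09) and 6.96 ± 0.76 (series Z, adjusted p = 1e-08). aldocb did the reverse. In series M, aldocb was at 0 to 1.36 FPKM in muscle (median 0), 73.0 to 245 in N (median 133) and 0 to 43.7 in the vascular captures (median 3.60). Series Z had aldocb at 0 to 40.4 FPKM in muscle (median 0), 135 to 270.0 in N (median 192) and 0 to 137 in the vascular captures (median 18.4). Its muscle minus N difference was -6.90 ± 0.81 (series M, adjusted p = 9.69e-09) and -6.54 ± 0.89 (series Z, adjusted p = 2.47e-07), and every muscle library lay below every N library. N also exceeded the vascular captures in aldocb, by 5.0 ± 0.76 (series M, adjusted p = 2.43e-06) and 3.98 ± 0.82 (series Z, adjusted p = 0.00025). aldoaa, the other A-type copy, was abundant in all 3 tissues. In series M, aldoaa was at 341 to 1205 FPKM in muscle (median 619.8), 129.8 to 259.6 in N (median 172) and 0 to 321 in the vascular captures (median 139.7). Series Z had aldoaa at 192 to 708 FPKM in muscle (median 396), 112 to 256 in N (median 179) and 0 to 169 in the vascular captures (median 69.1). aldoaa was higher in muscle than in the vascular captures by 3.18 ± 0.41 (series M, adjusted p = 3.08e-07) and 3.17 ± 0.57 (series Z, adjusted p = 8.35e-05), and every muscle library lay above every vascular one in both series. Against N it differed by 1.88 ± 0.56 (series M, adjusted p = 0.00572) and 0.99 ± 0.76 (series Z, adjusted p = 0.289). aldoca, a second C-type gene, was rare. In series M it was at 0 in every library of muscle, 0 to 14.6 (median 1.25) FPKM in N and 0 to 149 (median 0) in the vascular captures. With a floor of 3 reads over the muscle group, its mean was at least 17.2-fold above muscle in N and 70.3-fold in the vascular captures. Even so, aldoca overlapped between muscle and N and was not called there. In series Z it was above 0 in 2 CA libraries and in no other.

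The aldolase genes split the family's FPKM differently by tissue. aldoab held a median 54.2% of it in muscle of series M and 84.2% in series Z, against 0% and 2.65% in N. aldocb held 38.6% and 49.6% in N. The pair difference aldoab minus aldocb was 9.34 ± 0.26 in muscle and -6.06 ± 2.11 in N in series M (SD, n = 6 sections), and 9.71 ± 1.51 in muscle and -3.98 ± 2.33 in N in series Z, larger in muscle in 6 of 6 sections each (exact sign-flip permutation p = 0.03125, adjusted p = 0.0457). That sign follows from the separation of both genes between muscle and N and is not separate evidence. Within the A types, aldoaa minus aldoab was -0.14 ± 0.42 in muscle and 6.48 ± 1.88 in N in series M, and -2.40 ± 0.34 in muscle and 3.88 ± 2.08 in N in series Z. In muscle the copies were nearly level in series M and aldoab was ahead in series Z, and in N aldoaa led in both.

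Triose phosphates are interconverted by tpi1a and tpi1b. In series M, tpi1b was at 165 to 394 FPKM in muscle (median 299), 38.4 to 128 in N (median 64.6) and 0 to 182 in the vascular captures (median 43.1). Series Z had tpi1b at 97.0 to 309 FPKM in muscle (median 209), 22.8 to 132 in N (median 76.8) and 2.71 to 153 in the vascular captures (median 36.9). tpi1b was higher in muscle than in the vascular captures by 3.54 ± 0.62 (series M, adjusted p = 3.84e-05) and 2.31 ± 0.46 (series Z, adjusted p = 0.000275). It differed from N by 2.08 ± 0.83 (series M, adjusted p = 0.0342) and 1.41 ± 0.61 (series Z, adjusted p = 0.0565). In series M, tpi1a was at 0 to 17.6 FPKM in muscle (median 0), 1.19 to 50.2 in N (median 17.9) and 0 to 78.0 in the vascular captures (median 0). Series Z had tpi1a at 0 to 23.3 FPKM in muscle (median 0), 0.543 to 21.7 in N (median 14) and 0 to 31.7 in the vascular captures (median 0.897). tpi1a was lower in muscle than in N, with differences of -2.80 ± 0.81 (series M, adjusted p = 0.0047) and -2.76 ± 0.87 (series Z, adjusted p = 0.0102), which under quantile scaling were -1.23 (adjusted p = 0.377) and -1.44 (adjusted p = 0.206). tpi1b was the higher copy of this pair in muscle and in N: tpi1b minus tpi1a was 7.04 ± 1.09 in muscle and 2.16 ± 1.61 in N in series M, and 6.80 ± 1.28 in muscle and 2.65 ± 1.67 in N in series Z (SD, n = 6 sections).

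GAPDH, the enzyme of the step that makes NADH, came mostly from one gene in muscle and from another in N. In series M, gapdh was at 1535 to 2418 FPKM in muscle (median 2116), 1.54 to 27.8 in N (median 15.9) and 0 to 1517 in the vascular captures (median 58.1; 0 to 376 and median 42.2 without the 4 libraries). Series Z had gapdh at 1256 to 2638 FPKM in muscle (median 1723), 18.2 to 94.8 in N (median 22.7) and 0 to 508 in the vascular captures (median 30.6). gapdh was higher in muscle than in N by 7.57 ± 0.74 (series M, adjusted p = 1.61e-10) and 5.56 ± 0.77 (series Z, adjusted p = 3.82e-07). gapdh also exceeded the vascular captures, by 5.39 ± 0.55 (series M, adjusted p = 1.86e-09) and 5.59 ± 0.58 (series Z, adjusted p = 3.82e-09). No muscle library overlapped with an N or vascular library in either series. gapdhs, whose mammalian counterpart is the sperm form, was the copy that was higher in N. In series M, gapdhs was at 0 to 83.3 FPKM in muscle (median 14.7), 382 to 946 in N (median 592) and 0 to 789 in the vascular captures (median 92.3). Series Z had gapdhs at 0 to 259 FPKM in muscle (median 113), 383 to 1157 in N (median 712) and 40.4 to 744 in the vascular captures (median 307). Its muscle minus N difference was -5.92 ± 0.89 (series M, adjusted p = 1.36e-06) and -3.78 ± 0.74 (series Z, adjusted p = 9.35e-05), again without overlap. Against the vascular captures gapdhs was also lower in muscle, with differences of -2.97 ± 0.66 (series M, adjusted p = 0.000902) and -2.27 ± 0.56 (series Z, adjusted p = 0.00263). gapdh made up a median 99.3% of the pair's FPKM in muscle of series M and 93.9% in series Z, while gapdhs made up 97.2% and 96.4% in N. The difference gapdh minus gapdhs was 7.71 ± 2.24 in muscle and -5.79 ± 1.65 in N in series M (SD, n = 6 sections), and 5.03 ± 2.30 in muscle and -4.33 ± 1.2 in N in series Z, larger in muscle in 6 of 6 sections of each (exact permutation p = 0.03125, adjusted p = 0.0457). As both genes separated muscle from N in opposite directions, that sign was fixed by the single-gene values.

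**Figure D3:**
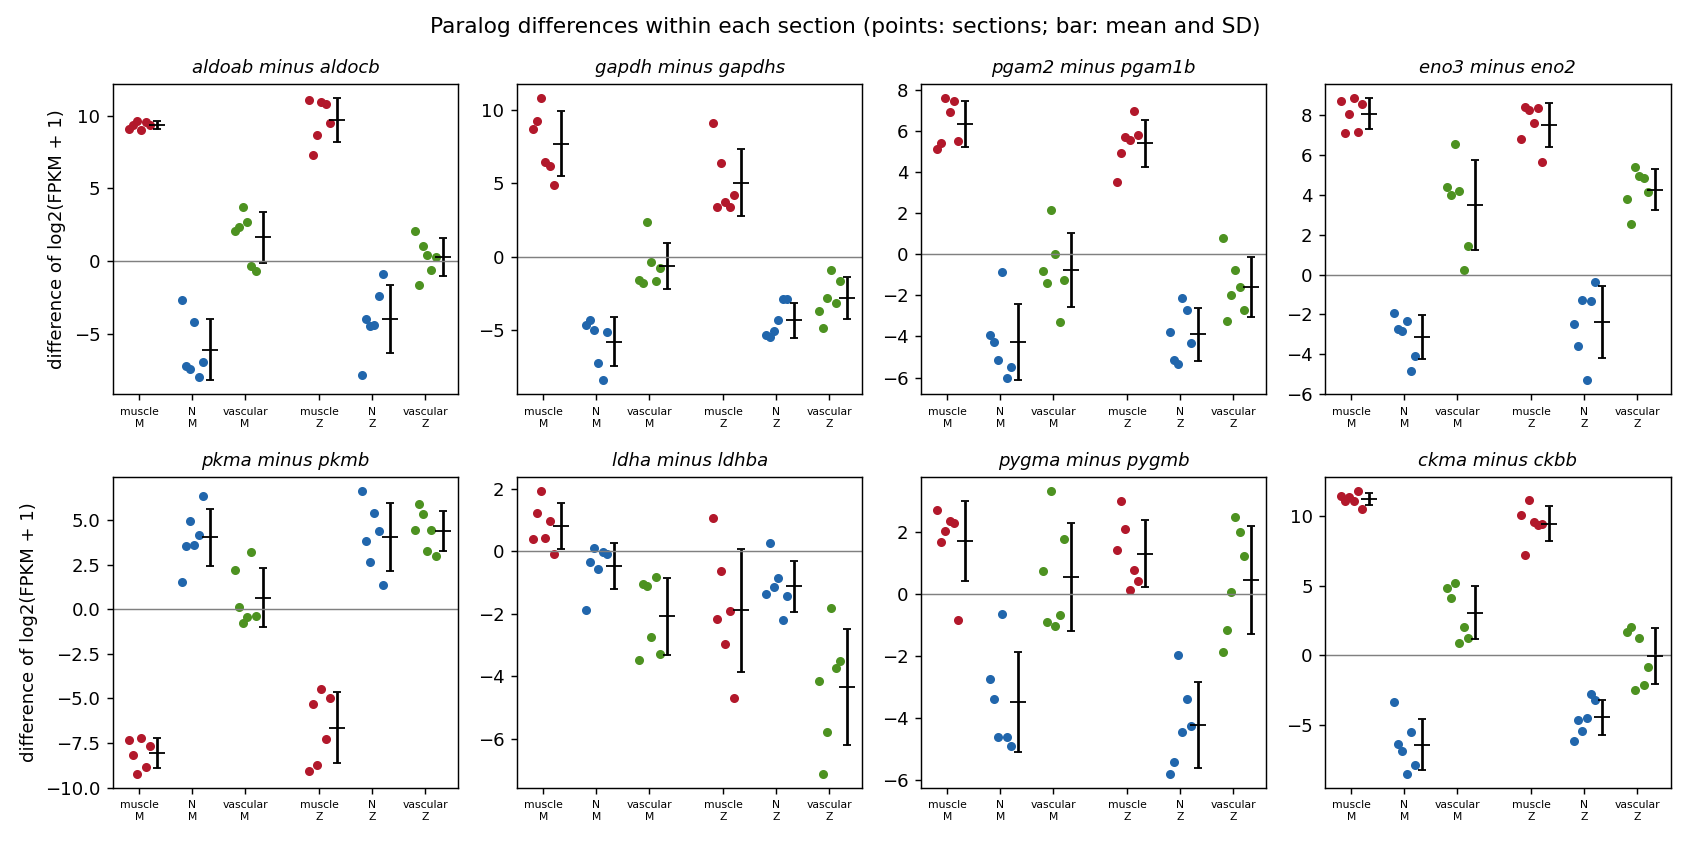
Difference of log2(FPKM + 1) between the named genes of 8 pairs (y axis), averaged over the libraries of a tissue within a section (points, 6 sections per tissue and series), with mean and SD beside them, for muscle, N and vascular captures of series M and then series Z. For aldoab minus aldocb, gapdh minus gapdhs, pgam2 minus pgam1b, eno3 minus eno2 and ckma minus ckbb all muscle sections lie above 0 and all N sections below, pkma minus pkmb is the other way round, and ldha minus ldhba overlaps between muscle and N.

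pgk1 codes for phosphoglycerate kinase, which makes the first ATP of the pathway, and has no paralog among these genes. In series M, pgk1 was at 58.8 to 186 FPKM in muscle (median 117), 7.91 to 37.6 in N (median 27.5) and 0 to 185 in the vascular captures (median 18.1). Series Z had pgk1 at 65.7 to 174 FPKM in muscle (median 120.3), 0 to 79.4 in N (median 41.6) and 0 to 104 in the vascular captures (median 27.9). It was higher in muscle than in N by 2.25 ± 0.68 (series M, adjusted p = 0.00636) and 2.17 ± 0.77 (series Z, adjusted p = 0.0217). pgk1 also exceeded the vascular captures, by 2.68 ± 0.50 (series M, adjusted p = 0.000119) and 2.04 ± 0.59 (series Z, adjusted p = 0.00916). Of the phosphoglycerate mutases, pgam2 is the muscle form in mammals and pgam1 the brain form. In series M, pgam2 was at 11 to 215 FPKM in muscle (median 149.8), 0 to 10.5 in N (median 0) and 0 to 88.7 in the vascular captures (median 0; 0 to 38.8 and median 0 without the 4 libraries). Series Z had pgam2 at 0 to 229 FPKM in muscle (median 74.7), 0 to 3.43 in N (median 0) and 0 to 24.9 in the vascular captures (median 0). pgam2 was higher in muscle than in N by 6.24 ± 0.83 (series M, adjusted p = 1.49e-07) and 5.27 ± 0.78 (series Z, adjusted p = 1.38e-06). pgam2 also exceeded the vascular captures, by 6.17 ± 0.62 (series M, adjusted p = 1.39e-09) and 4.51 ± 0.59 (series Z, adjusted p = 4.36e-07). It was above 0 in 1 of 6 N libraries of each series. In series M, pgam1b was at 0 to 5.16 FPKM in muscle (median 0), 14.3 to 64.6 in N (median 26.8) and 0 to 31.1 in the vascular captures (median 0). Series Z had pgam1b at 0 to 1.75 FPKM in muscle (median 0), 3.44 to 39.9 in N (median 23.3) and 0 to 35.3 in the vascular captures (median 8.06). pgam1b was lower in muscle than in N without overlap, with differences of -4.37 ± 0.74 (series M, adjusted p = 1.05e-05) and -4.07 ± 0.76 (series Z, adjusted p = 5.5e-05). In series M, pgam1a was at 0 in every library of muscle, 6.38 to 33 FPKM in N (median 24.8) and 0 to 28.3 in the vascular captures (median 0). Series Z had pgam1a at 0 to 51.2 FPKM in muscle (median 1.00), 2.54 to 58.3 in N (median 26.0) and 0 to 55.3 in the vascular captures (median 0.422). pgam1a differed likewise, by -4.44 ± 0.61 (series M, adjusted p = 3.16e-07) and -2.63 ± 0.92 (series Z, adjusted p = 0.0191), and in series M its mean in N was at least 92.1-fold higher than in muscle, with the same floor of 3 reads over the muscle group. Under quantile scaling the pgam1a difference of series Z was -1.18 with an adjusted p of 0.385, and with the covariate for detected genes it turned to 2.04 (adjusted p = 0.432), as did N minus vascular, to -0.28 (adjusted p = 0.901).

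Enolase used 3 genes at sizeable levels, each with its own tissue order. In mammals eno3 is the muscle form, eno2 the neuronal form and eno1 the general form. In series M, eno3 was at 198 to 480.4 FPKM in muscle (median 396), 3.76 to 16.9 in N (median 10.5) and 0 to 392 in the vascular captures (median 43.8; 0 to 143 and median 48.5 without the 4 libraries). Series Z had eno3 at 141 to 456 FPKM in muscle (median 331), 0 to 24.6 in N (median 13.3) and 0 to 188 in the vascular captures (median 31.6). eno3 was higher in muscle than in N by 5.22 ± 0.84 (series M, adjusted p = 4.89e-06) and 4.99 ± 0.74 (series Z, adjusted p = 1.39e-06), without overlap. eno3 also exceeded the vascular captures, by 3.67 ± 0.63 (series M, adjusted p = 3.06e-05) and 3.41 ± 0.56 (series Z, adjusted p = 2.17e-05). In series M, eno2 was at 0 to 7.72 FPKM in muscle (median 0), 59.8 to 133 in N (median 83.1) and 0 to 33.9 in the vascular captures (median 0). Series Z had eno2 at 0 to 9.74 FPKM in muscle (median 0.121), 32.1 to 51.0 in N (median 43.1) and 0 to 7.48 in the vascular captures (median 0). eno2 was lower in muscle than in N, again without overlap, by differences of -5.96 ± 0.73 (series M, adjusted p = 3.2e-08) and -4.62 ± 0.54 (series Z, adjusted p = 1.38e-08). It was also higher in N than in every vascular library, by 5.03 ± 0.69 (series M, adjusted p = 3.75e-07) and 5.06 ± 0.50 (series Z, adjusted p = 2.97e-10). A difference of eno2 between muscle and the vascular captures was not detectable, at -0.93 ± 0.55 (series M, adjusted p = 0.207) and 0.44 ± 0.41 (series Z, adjusted p = 0.452). In series M, eno1a was at 159 to 369.7 FPKM in muscle (median 279.8), 53.3 to 163 in N (median 72.0) and 0 to 178 in the vascular captures (median 14.4; 0 to 102 and median 14.4 without the 4 libraries). Series Z had eno1a at 16.3 to 299 FPKM in muscle (median 201), 50.6 to 156 in N (median 74.2) and 0 to 149.8 in the vascular captures (median 13). eno1a was higher in muscle than in the vascular captures by 4.28 ± 0.61 (series M, adjusted p = 1.36e-06) and 4.17 ± 0.65 (series Z, adjusted p = 8.7e-06). N exceeded them in eno1a by 2.56 ± 0.77 (series M, adjusted p = 0.0105) and 3.05 ± 0.79 (series Z, adjusted p = 0.00323). Muscle and N differed by 1.72 ± 0.81 (series M, adjusted p = 0.0727) and 1.12 ± 0.85 (series Z, adjusted p = 0.286). eno1b was low and was called between muscle and N in series M alone, at -2.02 ± 0.75 (adjusted p = 0.0232), with medians of at most 5.32 FPKM in any tissue. eno3 minus eno2 was 8.06 ± 0.78 in muscle and -3.12 ± 1.09 in N in series M, and 7.49 ± 1.1 in muscle and -2.39 ± 1.81 in N in series Z (SD, n = 6 sections), larger in muscle in 6 of 6 sections of each (exact permutation p = 0.03125, adjusted p = 0.0457). That sign, too, follows from the separation of the single genes.

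Pyruvate kinase, the last ATP-making step, came mostly from one copy in muscle and from the other in N. In series M, pkmb was at 533 to 843 FPKM in muscle (median 594), 0 to 7.79 in N (median 3.42) and 0 to 567 in the vascular captures (median 27.2; 0 to 162 and median 19.0 without the 4 libraries). Series Z had pkmb at 181 to 783 FPKM in muscle (median 395), 0 to 19.9 in N (median 3.83) and 0 to 75 in the vascular captures (median 0.148). pkmb was higher in muscle than in N by 7.19 ± 0.90 (series M, adjusted p = 4.65e-08) and 6.34 ± 0.86 (series Z, adjusted p = 2.57e-07), without overlap. pkmb also exceeded the vascular captures, by 5.29 ± 0.67 (series M, adjusted p = 1.81e-07) and 6.68 ± 0.65 (series Z, adjusted p = 8.16e-10). In series M, pkma was at 0 to 20.4 FPKM in muscle (median 0), 24.0 to 135 in N (median 67.7) and 0 to 309 in the vascular captures (median 27.9). Series Z had pkma at 0 to 169 FPKM in muscle (median 0.237), 41.4 to 98.6 in N (median 83.6) and 1.17 to 310.4 in the vascular captures (median 98.3). pkma was lower in muscle than in N, with a difference of -4.91 ± 0.86 (series M, adjusted p = 1.7e-05) and -4.43 ± 0.91 (series Z, adjusted p = 0.00019). It was also lower than in the vascular captures, with a difference of -3.44 ± 0.64 (series M, adjusted p = 9.82e-05) and -4.44 ± 0.69 (series Z, adjusted p = 9.07e-06). pkmb made up 97.6% to 100% (median 100%) of the pair's FPKM in muscle of series M and 66.4% to 100% (median 99.9%) in series Z. The lowest of these was the right muscle library of layer 19, with pkmb at 334.9 FPKM and pkma at 169. pkma made up a median 94.7% (series M) and 95.5% (series Z) in N and 68.4% and 99.9% in the vascular captures. pkma minus pkmb was -8.06 ± 0.82 in muscle and 4.03 ± 1.61 in N in series M, and -6.64 ± 2.00 in muscle and 4.05 ± 1.89 in N in series Z (SD, n = 6 sections), smaller in muscle in 6 of 6 sections of each (exact permutation p = 0.03125, adjusted p = 0.0457). In series M that sign follows from the separation of the single genes. For pkma minus pkmb the vascular captures had values of 0.66 ± 1.65 in series M and 4.40 ± 1.14 in series Z.

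For lactate dehydrogenase no difference of copies between muscle and N passed the test. ldha codes for the muscle-type subunit of mammals and ldhba for the heart-type subunit. In series M, ldha was at 204 to 565 FPKM in muscle (median 383), 33.7 to 150.4 in N (median 119) and 0 to 341 in the vascular captures (median 41.6; 0 to 106 and median 41.3 without the 4 libraries). Series Z had ldha at 8.60 to 437 FPKM in muscle (median 132), 49.8 to 160.1 in N (median 63.4) and 0 to 70.9 in the vascular captures (median 12.5). ldha was higher in muscle than in the vascular captures by 3.60 ± 0.44 (series M, adjusted p = 7.74e-08) and 3.26 ± 0.68 (series Z, adjusted p = 0.000481). N exceeded them in ldha by 1.53 ± 0.55 (series M, adjusted p = 0.035) and 2.94 ± 0.83 (series Z, adjusted p = 0.00676). Between muscle and N it differed by 2.07 ± 0.59 (series M, adjusted p = 0.00411) and 0.32 ± 0.90 (series Z, adjusted p = 0.794). In series M, ldhba was at 122 to 471 FPKM in muscle (median 223), 92.6 to 157 in N (median 129) and 6.68 to 998 in the vascular captures (median 198). Series Z had ldhba at 78.2 to 656 FPKM in muscle (median 391), 90.9 to 284 in N (median 152) and 20.7 to 639 in the vascular captures (median 235). ldhba was high in all 3 tissues, and its muscle minus N difference was 0.80 ± 0.59 (series M, adjusted p = 0.245) and 1.13 ± 0.42 (series Z, adjusted p = 0.0259). Against the vascular captures ldhba differed by 0.70 ± 0.44 (series M, adjusted p = 0.233) and 0.84 ± 0.32 (series Z, adjusted p = 0.0448). ldha minus ldhba was 0.81 ± 0.72 in muscle and -0.46 ± 0.73 in N in series M (SD, n = 6 sections; exact permutation p = 0.0625), and -1.88 ± 1.98 in muscle and -1.12 ± 0.82 in N in series Z (exact permutation p = 0.469). Neither passed after adjustment over the 19 pairs. In the vascular captures ldha minus ldhba was -2.08 ± 1.23 in series M and -4.35 ± 1.86 in series Z. Muscle exceeded this by 2.89 ± 0.74 in series M (exact permutation, adjusted p = 0.0396) and 2.46 ± 3.09 in series Z (adjusted p = 0.228). N exceeded it in 6 of 6 sections of each series, by 1.62 ± 0.96 and 3.23 ± 2.40 (adjusted p = 0.054 and 0.0594).

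**Figure D4:**
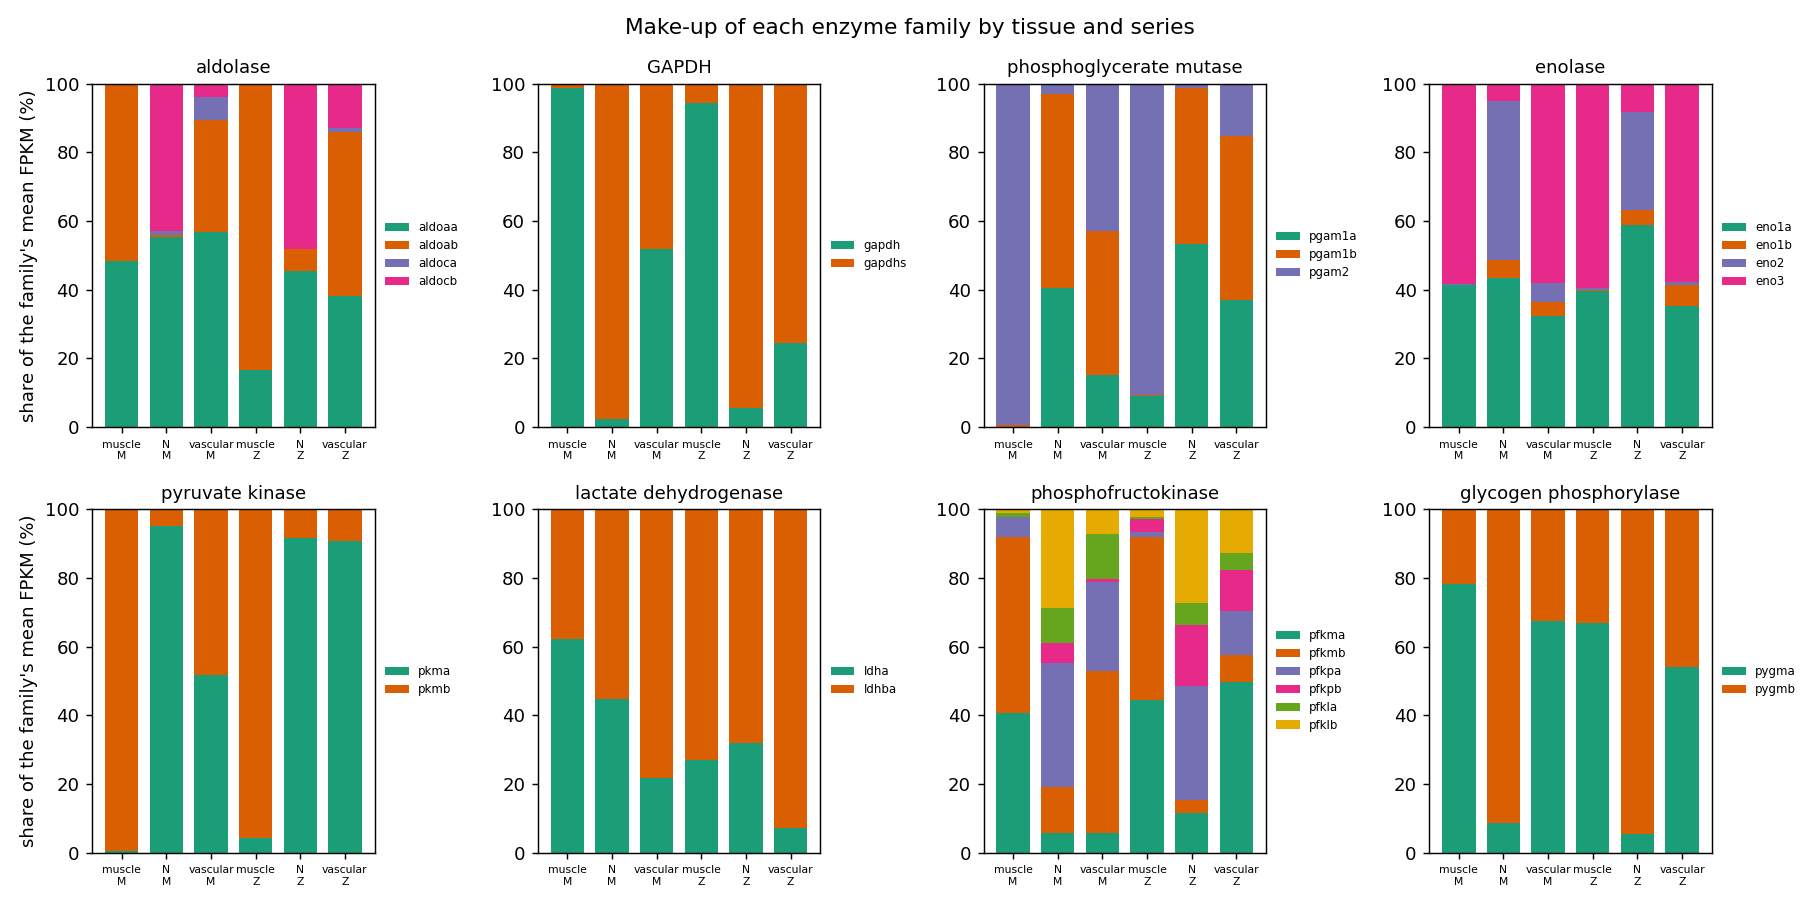
Share of each gene in the summed mean FPKM of its enzyme family (y axis, %) in muscle, N and vascular captures of series M and then series Z. gapdh and pkmb fill nearly the whole bar in muscle and gapdhs and pkma in N, while ldha and ldhba share the bar in muscle and N. In the vascular captures of series Z ldhba holds most of the bar.

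Of the 3 glycogen genes, pygma and gys1 were higher in muscle than in N in both series and pygmb was called in neither. pygma codes for a muscle-type glycogen phosphorylase. In series M, pygma was at 16.3 to 199 FPKM in muscle (median 125), 0 to 14 in N (median 2.03) and 0 to 55.4 in the vascular captures (median 5.61). Series Z had pygma at 17.1 to 169 FPKM in muscle (median 69.4), 0 to 10.9 in N (median 0.743) and 0 to 20.8 in the vascular captures (median 3.69). pygma was higher in muscle than in N by 5.14 ± 0.84 (series M, adjusted p = 5.75e-06) and 4.90 ± 0.74 (series Z, adjusted p = 2e-06), without overlap. pygma also exceeded the vascular captures, by 4.31 ± 0.62 (series M, adjusted p = 2.03e-06) and 4.18 ± 0.56 (series Z, adjusted p = 7.06e-07). pygmb is its copy. In series M, pygmb was at 16.4 to 79.0 FPKM in muscle (median 31.8), 19.2 to 85.8 in N (median 29.7) and 0 to 39.4 in the vascular captures (median 2.93). Series Z had pygmb at 7.40 to 97.8 FPKM in muscle (median 34.9), 21.0 to 88.3 in N (median 44.2) and 0 to 37.8 in the vascular captures (median 1.01). pygmb overlapped between muscle and N, at differences of -0.05 ± 0.70 (series M, adjusted p = 0.959) and -0.36 ± 0.76 (series Z, adjusted p = 0.725). Both tissues were higher than the vascular captures in pygmb, muscle by 3.15 ± 0.52 (series M, adjusted p = 1.75e-05) and 3.60 ± 0.58 (series Z, adjusted p = 1.39e-05). N exceeded them by 3.19 ± 0.66 (series M, adjusted p = 0.000268) and 3.96 ± 0.70 (series Z, adjusted p = 3.14e-05). pygma made up a median 80.3% of the pair's FPKM in muscle of series M and 64.1% in series Z, while pygmb made up 95.5% and 98.6% in N. In series M, gys1 was at 18.9 to 81.7 FPKM in muscle (median 44.2), 5.41 to 8.42 in N (median 6.60) and 0 to 49.0 in the vascular captures (median 1.14). Series Z had gys1 at 20.6 to 93.5 FPKM in muscle (median 45.2), 0 to 14.7 in N (median 5.87) and 0 to 63.6 in the vascular captures (median 1.92). gys1, a muscle-type glycogen synthase, was higher in muscle than in N by 2.49 ± 0.81 (series M, adjusted p = 0.0114) and 3.0 ± 0.78 (series Z, adjusted p = 0.00225), without overlap. With a pseudocount of 0.1 this difference of gys1 was not called in both series. gys1 also exceeded the vascular captures, by 3.43 ± 0.61 (series M, adjusted p = 4.9e-05) and 3.62 ± 0.59 (series Z, adjusted p = 1.88e-05).

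Counted over libraries, 14 members of series M had every muscle library above every N library, against 1.95% of all genes, and 9 had every one below, against 18.4%. In series Z these numbers were 9, against 1.18%, and 4, against 11.4%. Among the 19 paralog pairs, the difference between the copies was unlike in muscle and N in 13 pairs of each series (exact sign-flip permutation test over 6 sections, adjusted p = 0.0457 for each). In ckma with ckbb, aldoab with aldocb, gapdh with gapdhs and eno3 with eno2, the genes separated muscle from N in opposite directions in both series. So did pkma with pkmb, and pgam2 with pgam1a and with pgam1b, in series M. There the exact p follows from the single-gene values and is not separate evidence. ckma with ckmb (exact p = 0.719 in series M and 0.625 in series Z) and pfkma with pfkmb (exact p = 0.875 and 0.188) did not pass, and both copies of each were higher in muscle. Between muscle and vascular captures 15 pairs passed in series M and 12 in series Z (adjusted p = 0.0396 and 0.0495), and in series Z none passed under quantile scaling, with a pseudocount of 0.1 or without the libraries closest to another region. Between N and vascular captures 11 and 10 pairs reached the smallest exact p of 0.03125, and none passed after adjustment (smallest adjusted p = 0.054 and 0.0594). Whether any pair passes depends on how many of the 19 reach that exact p: 12 there gave an adjusted p of 0.0495 and 11 gave 0.054. The numbers of pairs that passed are therefore not a measure of how much the tissues differ.

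Against the vascular captures, 17 of 36 members were higher in muscle in series M (5.35% of all genes) and 4 were lower (19.1% of all genes). In series Z 18 of 35 were higher (4.11% of all genes) and 4 were lower (22.1% of all genes). By limma-voom 13 members of series M were lower, against 80.1% of all genes by that method. The median difference was 1.31 over the members and -0.71 over all genes for series M, and 0.84 and -0.65 for series Z. In both series 17 were higher: the 12 that were also higher than in N, together with aldoaa, tpi1b, eno1a, ldha and pygmb. All 17 were still called in both series without the libraries closest to another region. The 3 that were lower in both were aldocb, gapdhs and pkma. Under quantile scaling gapdhs and pkma were lower in both, and with the covariate for detected genes pkma alone. Every muscle library lay above every vascular one for 2 members in series M (aldoaa and gapdh; 0.307% of all genes) and for 6 in series Z (those and aldoab, pkmb, ckma and ckmb; 0.26% of all genes). For none did every muscle library lie below (0.0986% and 0.23% of all genes).

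N exceeded the vascular captures in 13 of 36 members in series M, against 26.5% of all genes, and was below them in 4, against 2.52%. In series Z it was higher in 10 of 35, against 22.6% of all genes, and lower in none, against 5.51% (limma-trend gave 1 member an unadjusted p under 0.05 in that direction, and limma-voom called none). Without section 6 of series Z 1 member was lower, against 5.58% of all genes. The median difference was 0.95 over the members and 0.91 over all genes for series M, and 0.76 and 0.65 for series Z, so the median of the members was near that of all genes. The share of members called lower in series M, 11.1%, was above that of all genes. Every N library lay above every vascular one for aldocb and eno2 in series M (2.85% of all genes) and for eno2 in series Z (4.27% of all genes). In both series 8 were higher in N: aldocb, eno2, pygmb, pgam1a, eno1a, hk1, ldha and pfklb. Of these 8, 6 were called in both series under quantile scaling (not pgam1a and pfklb). With a pseudocount of 0.1, and also without the libraries closest to another region, ldha and pfklb were not called in both and the other 6 were. None was with the covariate for detected genes, which left 1.35% (series M) and 9.31% (series Z) of all genes higher in N. The 4 that were lower in N in series M were ckmb, aldoab, ckma and gapdh, at differences of -3.10 ± 0.77, -2.70 ± 0.73, -2.35 ± 0.66 and -2.19 ± 0.70. Series Z gave -0.38 ± 0.62, -0.28 ± 0.93, 0.71 ± 0.58 and 0.03 ± 0.71 for the same genes. Of the 20 sarcomere genes, limma-trend called 16 lower for N minus vascular in series M, and the median difference of the 20 was -2.61. It called 0 of 20 in series Z, where their median difference was 0.13. The part of muscle RNA in the differences of ckmb, aldoab, ckma and gapdh was not tested.

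Within the vascular captures, ckma, ckmb, aldoab and gapdh were lower in CV than in CA in both series. In CV minus CA, 5 members were lower in series M (1.26% of all genes) and 1 was higher (1.41% of all genes), and in series Z 4 were lower (0.894% of all genes) and none was higher (3.41% of all genes), where 4 members had an unadjusted p under 0.05 in that direction and limma-voom called 2. The others of series M were ldha, which was lower at -2.67 ± 0.68, and pfkla, which was higher at 3.35 ± 0.88. In series M, ckmb was at 19.7 to 248 FPKM in CV (median 74.0) and 312 to 9594 in CA (median 829.7), and in series Z at 3.66 to 95.7 FPKM in CV (median 9.80) and 238 to 2256 in CA (median 1194). CV differed from CA in ckmb by -3.66 ± 0.94 (series M, adjusted p = 0.0225) and -5.60 ± 0.76 (series Z, adjusted p = 4.79e-06). The difference of ckma was -4.10 ± 0.80 (series M, adjusted p = 0.00162) and -6.54 ± 0.72 (series Z, adjusted p = 9.58e-08). That of aldoab was -5.56 ± 0.90 (series M, adjusted p = 0.000131) and -4.93 ± 1.13 (series Z, adjusted p = 0.0063), and that of gapdh -3.02 ± 0.85 (series M, adjusted p = 0.0433) and -3.22 ± 0.87 (series Z, adjusted p = 0.0252). Without section 6 or 8 of series M 2 members were lower (0.723% and 0.903% of all genes), and without section 12 3 were (0.92% of all genes). Without section 19 or 25 of series Z 2 were lower (0.532% and 0.616% of all genes). Without the libraries closest to another region, the one gene called lower in both series was aldoab. gapdh was not called in both with no replicate block, no filter, quantile scaling or a pseudocount of 0.1, and ckmb was not with a pseudocount of 0.1. The 20 sarcomere genes moved with these: their sum was 649 to 3171 in CV and 7241 to 167460.0 in CA of series M, and 26.5 to 1844 in CV and 2585 to 68873 in CA of series Z, with acta1b and myhz1.2 at 0 in all CV libraries of series Z. ckmb amounted to 3.07% to 4.95% of the sarcomere sum in muscle of series M and 3.33% to 5.73% in CA, and to 3.19% to 5.18% in muscle of series Z and 3.15% to 9.22% in CA. ckma amounted to 0.0721% to 0.959% in CA of series M, where 5 of 6 libraries lay below the range of muscle (0.846% to 1.49%), and in CA of series Z 5 of 6 lay within it. aldoab lay below the muscle range in 3 of 6 CA libraries in series M and in 4 of 6 in series Z, and gapdh in 2 of 6 in each. The part of muscle RNA in the CA values was not tested.

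Some members did not keep the proportion to the sarcomere genes that they had in muscle. The sarcomere sum of series M had a median of 216594 in muscle, 1288 in CV and 4507 in CVP. A gene that falls less than this sum rises in proportion. In CVP of series M all 6 libraries lay above the muscle range for gapdhs, pgk1, eno1a, pkma, ldha, ldhba and hk1. The rise of aldoaa and tpi1b is thus not particular to them, and it was not counted over all genes. aldoaa amounted to 0.131% to 0.784% of the sarcomere sum in muscle of series M, 1.04% to 8.08% in CVP and 0% to 14.2% in CV, and all 6 CVP libraries and 5 of 6 CV libraries lay above the muscle range. In series Z aldoaa lay above the muscle range in all 6 CV and 5 of 6 CVP libraries. tpi1b was above it in 4 of 6 CV and 5 of 6 CVP libraries of series M and in all 12 of series Z. pkma, which was low in muscle, reached 34.0 to 309 FPKM in CVP (median 99.1) and 0 to 30.4 in CV (median 14.6) of series M, and 61.9 to 273 FPKM in CVP (median 144) and 29.2 to 310.4 in CV (median 79.5) of series Z. Epidermal markers were also high in CV, at 11539 to 35126 summed FPKM of 5 genes in series M and 7045 to 22139.8 in series Z, and erythroid markers in the vascular captures of series Z at 1976 to 268245 for 7 genes. Their part in these values was not tested.

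**Figure D5:**
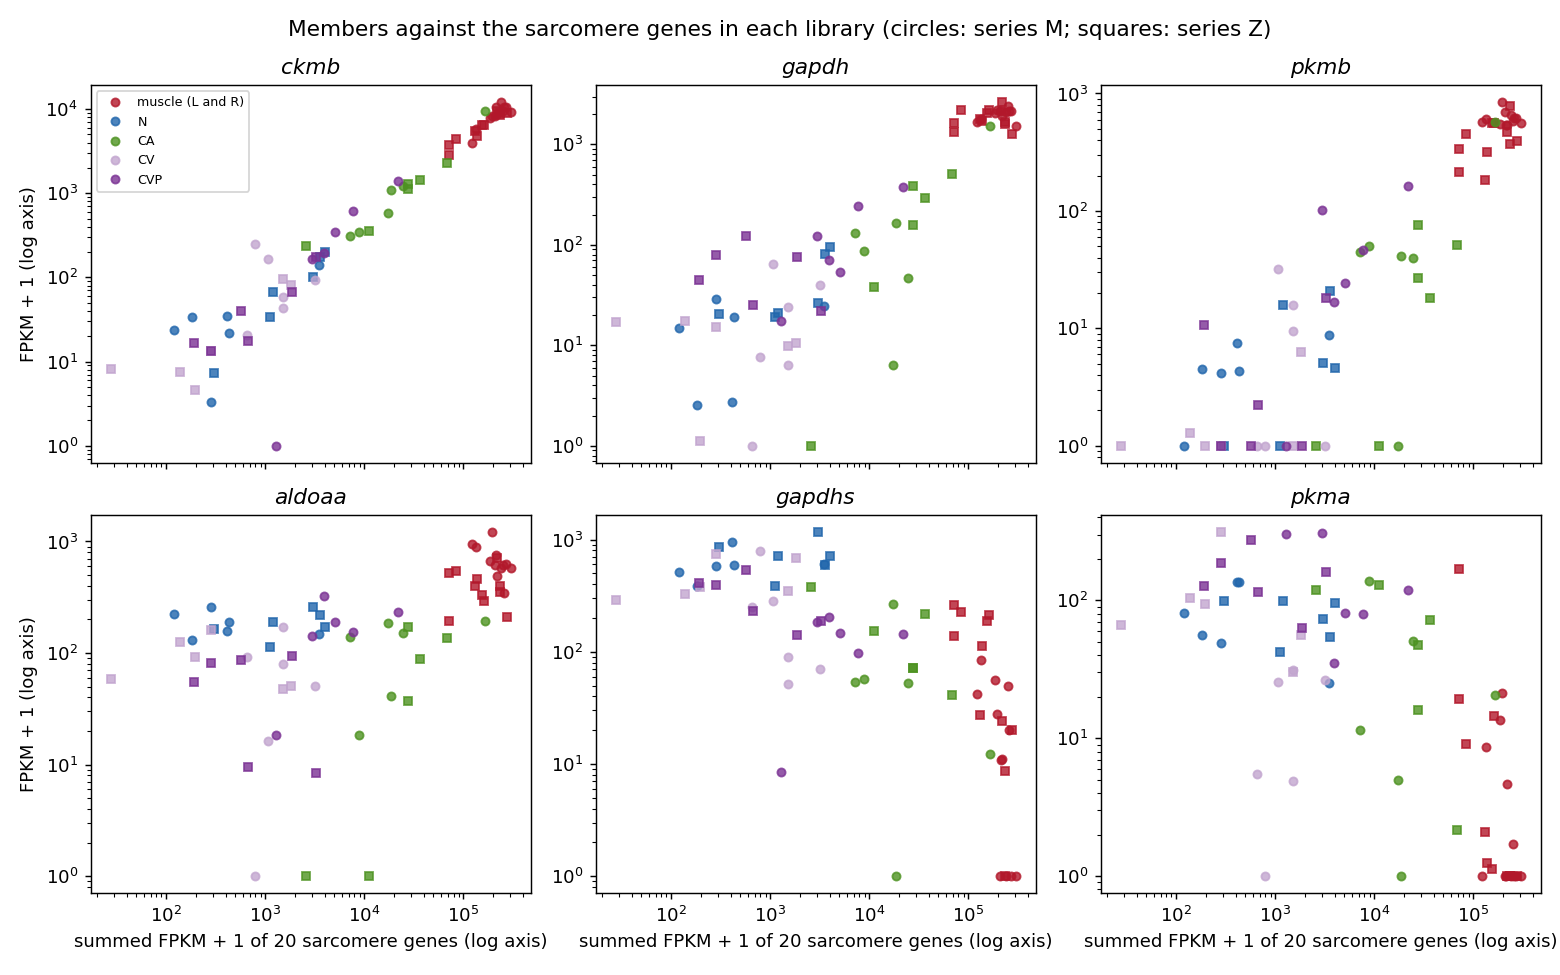
Level of 6 genes in each library as FPKM + 1 (y axis, log scale) against the summed FPKM + 1 of 20 sarcomere genes (x axis, log scale), coloured by region, with circles for series M and squares for series Z. ckmb is high in muscle, with CA next to it along the sarcomere axis, whereas gapdhs and pkma are low in muscle and high in N.

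CVP differed from CA in 2 members of series Z, ckma and ckmb, with differences of -5.32 ± 0.72 and -4.60 ± 0.76 (adjusted p = 1.38e-05 and 0.000301), against 0.707% of all genes called lower and 3.75% called higher. The sarcomere genes moved with them: 15 of 20 were lower in CVP, with a median difference of -4.11, and their sum was 189.9 to 3244 in CVP and 2585 to 68873 in CA. In series M none was called by limma-trend, against 0.372% of all genes lower and 3% higher, 5 had an unadjusted p under 0.05, and limma-voom called none. Without section 2 or section 15 of series M 1 member was called higher (1.57% and 3.12% of all genes). CVP was higher than CV in 6 members of series M (4.24% of all genes): aldoab, gapdh, eno1a, pkma, ldha and ckma, by 4.09 ± 0.90, 2.99 ± 0.85, 3.22 ± 0.94, 3.67 ± 0.99, 2.59 ± 0.68 and 3.46 ± 0.80. Cell type markers differed too: 9 of 20 sarcomere genes (median difference 2.56), 8 of 9 endothelial genes (median 3.53) and 2 of 3 neutrophil genes (median 3.78) were also higher in CVP. Of 5 epidermal genes 1 was lower (median -3.19). The sarcomere sum was 1286 to 22245 in CVP and 649 to 3171 in CV, and the endothelial sum 585 to 1639 in CVP and 2.24 to 437 in CV. The part of these markers in the CVP differences was not tested. Without section 6, 8 or 12, 3 members were higher in CVP than in CV (2.1%, 1.98% and 2.33% of all genes). In series Z none was called (0.199% of all genes higher and 0.242% lower), 2 had an unadjusted p under 0.05, and limma-voom called none.

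The remaining genes of these pathways were read from lists of named genes. For list genes lower in muscle, fits under quantile scaling or with the covariate for detected genes are not given here. For these genes too, tissue and number of detected genes cannot be told apart. Of the 8 other creatine genes, muscle exceeded N in 3 (3.27% of all genes) and was below it in 3 (49.1% of all genes) in series M. In series Z 3 of 7 were higher (3.49% of all genes) and 2 lower (41.8% of all genes). Their median difference was 0.44 (series M) and 0.37 (series Z), against -1.63 and -1.32 over all genes. ckmt2b, a mitochondrial creatine kinase of muscle, and gamt and gatm, the enzymes that make creatine, were higher in both series. In series M, gamt was at 116 to 889 FPKM in muscle (median 688), 0 to 26.0 in N (median 6.48) and 0 to 289 in the vascular captures (median 9.87). It was higher in muscle than in N by 6.89 ± 0.97 (series M, adjusted p = 4.63e-07) and 4.20 ± 0.80 (series Z, adjusted p = 6.42e-05). gatm was higher by 6.00 ± 0.79 (series M, adjusted p = 1.29e-07) and 4.47 ± 0.79 (series Z, adjusted p = 2.44e-05). ckmt2b was higher by 6.43 ± 0.85 (series M, adjusted p = 1.33e-07) and 5.51 ± 0.70 (series Z, adjusted p = 7.5e-08). ckmt1, the other mitochondrial type, differed by -4.5 ± 0.50 (series M, adjusted p = 3.91e-09) and -5.03 ± 0.84 (series Z, adjusted p = 9.25e-06). The creatine transporter slc6a8 was not called between muscle and N, at 1.51 ± 1.01 (series M, adjusted p = 0.199) and 0.37 ± 1.01 (series Z, adjusted p = 0.785). It was higher in muscle than in the vascular captures by 4.22 ± 0.75 (series M, adjusted p = 5.81e-05) and 3.35 ± 0.76 (series Z, adjusted p = 0.00122).

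Among 25 other glycogen genes, muscle exceeded N in 6 of 23 tested, against 3.27% of all genes, and was below it in 2, against 49.1% (series M). In series Z 2 of 21 were higher, against 3.49%, and 3 lower, against 41.8%. The medians were 0.51 and 0.17. The UDP-glucose pyrophosphorylases ugp2a and ugp2b, which make the substrate of glycogen synthase, were called in opposite directions between muscle and N. ugp2a was higher in muscle by 3.94 ± 0.75 (series M, adjusted p = 6.38e-05) and 2.58 ± 0.75 (series Z, adjusted p = 0.00562). ugp2b differed by -3.08 ± 0.93 (series M, adjusted p = 0.00657) and -2.53 ± 0.88 (series Z, adjusted p = 0.0183), against medians of -1.63 and -1.32 over all genes. ppp1r3cb, a glycogen-targeting subunit of protein phosphatase 1, was higher by 2.48 ± 0.76 (series M, adjusted p = 0.00705) and 1.91 ± 0.78 (series Z, adjusted p = 0.0429). In gluconeogenesis (medians -0.54 and -0.04) 1 of 7 genes tested was higher in each series (3.27% and 3.49% of all genes), fbp2, a muscle-type fructose bisphosphatase, by 3.05 ± 0.73 (series M, adjusted p = 0.000858) and 2.17 ± 0.73 (series Z, adjusted p = 0.0153). Of the other glucose transporters muscle was below N in 4 of 10 (series M) and 1 of 9 (series Z), no more than the 49.1% and 41.8% of all genes that were lower, with medians of -0.98 and -0.62. slc2a3a, a GLUT3-type transporter, was the one called in both, at 0 to 0.836 FPKM in muscle (median 0), 12.8 to 82.8 in N (median 23.6) and 0 to 83.5 in the vascular captures (median 0) of series M, and 0 to 0.309 FPKM in muscle (median 0), 22.5 to 106 in N (median 32.7) and 0 to 11.7 in the vascular captures (median 0) of series Z. Its muscle minus N difference was -4.65 ± 0.74 (series M, adjusted p = 3.91e-06) and -5.21 ± 0.54 (series Z, adjusted p = 9.53e-10).

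Of the other glycolysis and lactate genes muscle exceeded N in 1 of 18 (3.27% of all genes) and was below it in 4 (49.1% of all genes) in series M. In series Z none of 17 was higher (3.49% of all genes) and 4 were lower (41.8% of all genes), with medians of -1.14 and -0.72 in the series. pfkfb4b, which makes or removes the activator of phosphofructokinase, was lower in both, with differences of -3.55 ± 0.85 (series M, adjusted p = 0.000919) and -2.99 ± 0.65 (series Z, adjusted p = 0.000368). Genes of pyruvate entry and the glycerol phosphate shuttle were called higher in muscle more often against the vascular captures than against N, a difference that was not tested. Muscle exceeded the vascular captures in 11 of 20 (series M, 5.35% of all genes) and 9 of 21 (series Z, 4.11% of all genes), with a median difference of 1.71 and -0.17. It exceeded N in 1 of 20 and 1 of 21 (3.27% and 3.49% of all genes), with a median of 0.88 and 0.08. pdhb, a subunit of pyruvate dehydrogenase, was higher than in the vascular captures by 3.36 ± 0.70 (series M, adjusted p = 0.000415) and 3.72 ± 0.59 (series Z, adjusted p = 1.33e-05), and the mitochondrial pyruvate carrier gene mpc2 by 3.79 ± 0.77 (series M, adjusted p = 0.000322) and 2.39 ± 0.66 (series Z, adjusted p = 0.00655). Among 17 regulators, muscle exceeded N in 2 (3.27% of all genes) and was below it in 4 (49.1% of all genes) in series M. In series Z 6 were higher (3.49% of all genes) and 3 lower (41.8% of all genes). The medians were -0.08 and 0.22. Of the muscle transcription factors, mef2ca was higher by 5.23 ± 0.71 (series M, adjusted p = 2.2e-07) and 4.35 ± 0.65 (series Z, adjusted p = 1.6e-06), and myod1 by 4.19 ± 0.81 (series M, adjusted p = 7.7e-05) and 3.88 ± 0.87 (series Z, adjusted p = 0.000501). The others on the list, mef2aa, mef2cb, mef2d and myog, were not called higher in series M. The hypoxia factor hif1aa differed by -3.17 ± 0.57 (series M, adjusted p = 2.95e-05) and -3.50 ± 0.65 (series Z, adjusted p = 5e-05). Its partner arnt2 differed by -3.25 ± 0.69 (series M, adjusted p = 0.000238) and -3.69 ± 0.71 (series Z, adjusted p = 7.33e-05).

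The last comparisons concern sides, sections and series. No member was called in L minus R in either series (0% of all genes in series M, 0.0121% higher and 0% lower in series Z), gapdhs and pkma in series M and pgam2 and hk1 in series Z had an unadjusted p under 0.05 by limma-trend, and limma-voom called none. No member had a slope on the layer number that passed in muscle, N or the vascular captures of either series, and none of all genes did. Unadjusted p under 0.05 was reached by 1, 2 and 3 members in muscle, N and vascular captures of series M and by 2, 2 and 5 of series Z. Read depth moved with the layer in series Z, from 91104 to 260911 reads at layer 1 to 629848 to 3600827 at layer 25. Depth and position along the layers cannot be told apart there. The series were compared in a joint fit of 35 members. None of the 3 tissue differences was called as unlike between series M and series Z, with 2 members at an unadjusted p under 0.05 for muscle minus N (0% of all genes called), 4 for muscle minus vascular (0.456% and 0.173% of all genes called higher and lower) and 4 for N minus vascular (0.283% and 0.045%). The smallest adjusted p was 0.199 for muscle minus N, 0.144 for muscle minus vascular and 0.131 for N minus vascular.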

How the data were processed

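Zebrafish tail captures from 72 libraries were measured as polyA RNA amplified from laser-cut tissue. The authors deposited FPKM values, 1 table per series; per the submitters' processing notes FastQC, HISAT, HTSeq and DESeq2 were used with build GRCz10, with roles and versions not given in the sources used here. Gene positions and sequences are not given, since the annotation at hand belongs to another build. No column was left untied to a library (0 columns).

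FPKM values of a library are whole multiples of what 1 read is worth, and all 23948 genes above 0 in series M and 23482 in series Z gave whole reads (tolerance 0.001). On simulated reads the same steps returned the exact counts of 95.5% (series M) and 94.9% (series Z) of genes. One series Z library (left muscle, layer 6) held the rounded mean of 2 other left muscle libraries in 7859 of 7859 genes and was left out, so 71 libraries were used. The labels do not say that sections are separate embryos.

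Genes with at least 1 FPKM in at least 6 libraries of a series were tested: 18263 in series M and 16547 in series Z. limma 3.58.1 in R 4.3.3 (limma-trend on log2(FPKM + 1), region and section as terms) gave each comparison, with Benjamini-Hochberg adjustment over all genes tested. Paralog pairs were compared by a two-sided exact sign-flip permutation test over 6 sections, adjusted over 19 pairs. Pairing by section follows from the design, in which the 6 regions were cut from each section. Deviations from the region means correlated at a mean of 0.00979 within sections and -0.00194 between sections in series M, and at 0.0240 and -0.00446 in series Z. The fit was also run on simulated data, in which all libraries shared a common mean profile apart from known changes set in some genes. That profile lacked the difference in detected genes between tissues, so the run says nothing about its effect. Python 3.11.15, numpy 2.4.6, pandas 2.3.3 and matplotlib 3.10.9 were used for the rest.

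Named with full values are the 12 members with the largest mean absolute change between muscle and N among those called in both series, and the genes of the paralog pairs; genes of the other pathway lists are named where both series called them in 1 direction or where a result turns on them. The members and lists were chosen with earlier results of these data known. Alternatives were a pseudocount of 0.1, no filter, quantile scaling, no replicate block, a covariate for detected genes, limma-voom on recovered reads, and leaving out each section or the libraries closest to another region, and keeping the excluded library. Of the pathway lists, agl, phka1a, slc16a3a, slc16a3b, slc2a4, mpc2b and mdh1ab are not analysed here.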

Additional observations from a re-analysis of the deposited data

Results flagged for a closer look

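Of 141 groups of libraries of the 12 named members (1 gene in 1 region of 1 series), 29 had a highest or lowest library far from the others by Dixon's criterion. Chance passes it in about 1 in 20 groups of normally distributed values. FPKM values with many at 0 are not so distributed, so the 29 groups cannot be set against that rate. Values are FPKM, and many of the groups hold libraries at 0, where a single library above 0 is enough. The difference in the number of reads between libraries was not weighed.

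In right muscle of series M the section at layer 17 was low in several genes: ckmb was at 3904 (the others 8177 to 12088), gapdh at 1682 (2085 to 2191) and pygma at 16.3 (111 to 199). In left muscle of series M, pkmb was high at layer 2 with 843 (the others 535 to 608) and eno3 low at layer 8 with 198 (345 to 445). eno2 reached 1.59 in right muscle at layer 15, with the others at 0. In N of series M, pkmb was at 0 at layer 17 (the others 3.19 to 7.79) and pgam2 at 10.5 at layer 12, with the others at 0. The CA capture of layer 8 held eno3 at 392 (the others 22.8 to 45.6) and pgam2 at 88.7, with the others at 0. aldoab was at 6.66 in CV at layer 6 and at 0 in the other CV libraries. In CVP of series M, the library of layer 15 had ckmb at 0 (the others 163 to 1406), gapdhs at 7.51 (96.7 to 204) and eno2 at 15.8 (0 to 1.82), and pgam2 was at 38.8 at layer 2, with the others at 0.

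In series Z the left muscle library of layer 25 held pkma at 18.3 (the others 0 to 0.237) and aldocb at 4.75, with the others at 0. In right muscle, pgam2 was at 0 at layer 1 (the others 17.6 to 80.8) and eno2 at 1.303 at layer 19 (0 to 0.247). pgam2 was at 3.43 in N at layer 22, at 0.627 in CV at layer 19 and at 13.7 in CVP at layer 1, each time with the others of the region at 0. eno2 was at 2.04 in CA at layer 1 (the others 0 to 0.102), at 7.48 in CV at layer 25 (0 to 0.232) and at 1.91 in CVP at layer 25, with the others at 0. aldoab was at 0 in CA at layer 6 (the others 60.01 to 445). In CV, pkmb was at 5.33 at layer 1 (the others 0 to 0.296), gapdh at 0.126 at layer 22 (8.84 to 16.4) and eno3 at 0 at layer 6 (14.9 to 31.1).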

How the results depend on the processing

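Numbers of members higher in muscle than in the vascular captures stayed within 1.5 times under every alternative run. So did those higher than in N, except in series M with a covariate for detected genes. There 8 of 15 were left, and 0.876% of all genes were higher, against 3.27% without the covariate. Percentages in brackets give all genes called the same way under the same alternative. That covariate left 0 (series M, 1.52%) and 3 (series Z, 6.56%) members lower in muscle than in N, against 49.1% and 41.8% of all genes without it, so the loss ran through the whole table. It left 2 lower than in the vascular captures in each series (13.3% and 6.59%), 0 (series M, 1.35%) and 3 (series Z, 9.31%) higher in N than in the vascular captures, 2 lower in N there in series Z (5.3%), and 0 higher in CVP than in CV in series M (0.285%). Quantile scaling left 6 members lower in muscle than in N in each series (11.4% and 13.5%) and 2 lower than in the vascular captures in series M (4.91%). It gave 7 (series M, 5.07%) and 1 (series Z, 8.15%) lower in N than in the vascular captures, 0 higher (0.882%) and 3 lower (0.942%) in CV than in CA and 3 higher in CVP than in CV (1.14%), all in series M, and 12 paralog pairs between N and vascular captures in series M. By limma-voom 13 members were lower in muscle than in the vascular captures in series M (80.1%), 3 higher in CVP than in CV in series M (1.69%), 2 higher in CV than in CA in series Z (3.72%), and 1 higher (3.28%) and 4 lower (0.798%) in CVP than in CA in series Z. A pseudocount of 0.1 left 0 members higher in CV than in CA in series M (1.05%). Without the libraries closest to another region 0 were higher (1.74%) and 2 lower (1.92%) in CV than in CA, and 1 higher in CVP than in CA (3.14%), in series M. Without a filter 1 member differed between the series in muscle minus N.

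The paralog pairs between muscle and vascular captures of series Z fell to 0 with a pseudocount of 0.1, with quantile scaling and without the libraries closest to another region. In the main setting 12 pairs sat at the smallest exact p, with an adjusted p of 0.0495. If any of them leaves it, none passes, so the fall to 0 does not show that each pair changed. With no replicate block 15 pairs of series M and 10 of series Z passed between N and vascular captures, and without the block no other number of calls moved by over 1.5 times. With 5 sections the smallest exact p is 0.0625, so no pair can pass when a section is left out. Each section was also left out in turn, with the share of all genes in brackets. In series M this gave 0 to 1 members higher (0.756% to 2.02%) and 2 to 5 lower (0.723% to 1.69%) in CV than in CA. In series Z 2 to 5 were lower there (0.49% to 0.9%). In series M 0 to 1 were higher in CVP than in CA (1.08% to 4.51%) and 3 to 6 higher in CVP than in CV (1.98% to 6.66%). In series Z 0 to 1 were lower in N than in the vascular captures (3.99% to 5.58%).

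Signs turned with the covariate for hk1 in series M (muscle minus N 2.61, N minus vascular -2.38), pgam1a in series Z (muscle minus N 2.04, N minus vascular -0.28), pfkpa in series Z (muscle minus N 0.76) and pfkla in series M (muscle minus N 0.14). Under quantile scaling they turned for pfkla (muscle minus N 0.31) and pfkpb (muscle minus N 0.19, N minus vascular -0.092) in series M, and by limma-voom for tpi1a in series M (muscle minus vascular -1.24). The causes were not tested. Vascular libraries of series M had a median of 131188 recovered reads, which limits what could be detected there for low genes.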
